A study of Caenorhabditis elegans with 2 samples.

Results

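Small nucleolar RNA (snoRNA) genes were scored for binding of ZFP-2, a C2H2 zinc finger protein of Caenorhabditis elegans. The set held every nuclear gene whose biotype is snoRNA in the WBcel235 annotation, 346 of 46890 nuclear genes, each widened by 250 bp on both sides. Whether each snoRNA belongs to the box C/D or the box H/ACA type is not part of that annotation and was not used here. A gene counted as called when the summit of a peak lay in its widened window. The set comprised 169 genes lying wholly inside a protein-coding gene and clear of all its exons, called intronic here. Another 124 genes overlapped no protein-coding gene, and 53 overlapped an exon or an edge of one.

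The chromatin immunoprecipitation with sequencing (ChIP-seq) came from 1 group of 2 biological replicates and had no contrast between conditions. Whole hermaphrodites of strain OP534 carried unc-119(tm4063) on chromosome III and the integrated transgene wgIs534, which expresses ZFP-2 with GFP and FLAG at its C terminus. They were taken at the L4 larval stage, 52 hours after synchronization as starved L1 larvae, and the tagged protein was precipitated with anti-GFP antibody. Signal from whole animals cannot be assigned to a tissue, and a control data set linked to both replicates was not used here.

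Box C/D snoRNAs guide methylation of the ribose in ribosomal and small nuclear RNA, and box H/ACA snoRNAs guide the conversion of uridine to pseudouridine. In animals many snoRNAs are cut from the introns of host genes, and others are transcribed from promoters of their own. In nematodes, both arrangements occur, and genes transcribed by RNA polymerase III, such as tRNA genes, often carry their promoter as a box A and a box B inside the transcribed region. Genes for spliceosomal small nuclear RNA (snRNA) are instead controlled by a short element upstream of their start, bound by the SNAPc complex.

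The sequences immediately upstream of the called snoRNA genes held 2 recurring patterns, and representative ones are printed because the results below turn on them. Each runs 5′ to 3′ on the strand of the snoRNA gene, from 120 bases before to 20 bases from its first base, and was read from the WBcel235 genome, the sequence of ce11. Capitals mark matches to a box A core TGGCNNAGT followed by a box B core GTTCGANNC, each with at most 1 mismatch among 7 fixed letters, whose first bases lie 30 to 70 bp apart. These are the letters of a tRNA gene's internal promoter. The first 6 belong to genes with a thresholded summit: T03F7.8 (V:11314138-11314277, plus strand), Y43F8C.22 (V:19643168-19643307, minus strand), T06C12.16 (V:15873907-15874046, minus strand), F32E10.10 (IV:7574002-7574141, plus strand), F30H5.4 (III:502684-502823, plus strand) and M106.6 (II:10840197-10840336, plus strand). F12F6.11 (IV:11549845-11549984, minus strand) had a summit in the pooled list only, and Y59E1B.14 (X:1891389-1891528, plus strand) had none.
T03F7.8: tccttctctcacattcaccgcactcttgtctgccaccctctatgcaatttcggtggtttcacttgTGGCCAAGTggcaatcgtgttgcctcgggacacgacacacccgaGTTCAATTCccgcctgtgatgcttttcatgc
Y43F8C.22: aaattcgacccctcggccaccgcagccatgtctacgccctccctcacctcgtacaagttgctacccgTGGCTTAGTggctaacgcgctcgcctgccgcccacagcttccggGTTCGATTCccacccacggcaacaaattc
T06C12.16: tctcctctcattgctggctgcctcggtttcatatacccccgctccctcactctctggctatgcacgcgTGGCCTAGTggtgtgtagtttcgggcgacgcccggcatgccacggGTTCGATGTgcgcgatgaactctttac
F32E10.10: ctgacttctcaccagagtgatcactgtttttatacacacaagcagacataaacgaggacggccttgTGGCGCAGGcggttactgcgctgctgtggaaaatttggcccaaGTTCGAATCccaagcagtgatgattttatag
F30H5.4: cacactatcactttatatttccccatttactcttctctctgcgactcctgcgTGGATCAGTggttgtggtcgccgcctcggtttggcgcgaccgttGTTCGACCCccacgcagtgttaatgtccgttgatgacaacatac
M106.6: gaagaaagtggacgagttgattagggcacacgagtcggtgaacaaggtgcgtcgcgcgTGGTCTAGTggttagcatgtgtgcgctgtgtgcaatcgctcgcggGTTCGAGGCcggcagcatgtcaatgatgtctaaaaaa
F12F6.11: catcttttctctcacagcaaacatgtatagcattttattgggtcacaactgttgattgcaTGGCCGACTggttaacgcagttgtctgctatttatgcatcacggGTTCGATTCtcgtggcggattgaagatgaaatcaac
Y59E1B.14: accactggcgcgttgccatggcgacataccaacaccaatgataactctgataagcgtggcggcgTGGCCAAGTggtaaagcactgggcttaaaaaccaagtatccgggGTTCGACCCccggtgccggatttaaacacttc

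Another pattern consisted of the words GGAACCC and TGTCGG separated by 6 bases, with at most 2 mismatches among the 13 letters, and is called the 2-word motif here. It is shown in capitals for 3 genes with a thresholded summit: ZK994.7 (V:8500459-8500598, plus strand), C16D9.11 (V:8228950-8229089, minus strand) and Y53F4B.47 (II:15025874-15026013, minus strand).
ZK994.7: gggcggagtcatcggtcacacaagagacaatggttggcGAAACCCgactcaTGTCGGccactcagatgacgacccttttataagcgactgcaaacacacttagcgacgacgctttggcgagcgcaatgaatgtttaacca
C16D9.11: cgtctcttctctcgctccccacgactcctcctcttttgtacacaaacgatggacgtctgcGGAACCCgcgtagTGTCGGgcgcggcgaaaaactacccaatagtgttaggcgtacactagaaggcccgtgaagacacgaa
Y53F4B.47: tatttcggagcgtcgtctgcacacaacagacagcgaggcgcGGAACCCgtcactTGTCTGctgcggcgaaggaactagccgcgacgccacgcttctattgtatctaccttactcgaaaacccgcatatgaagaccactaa

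For comparison, F09G2.14 (V:7196561-7196700, minus strand), the snoRNA gene with the second strongest summit, held neither pattern. C51F7.3 (V:12303588-12303727, plus strand) also held neither under these letter rules, but it missed the box pair by its box A alone. Its sequence holds the box B core as GTTCGACCC. Before that stands TGGTCTAGG, which has more mismatches to the box A core than the rule allows. C51F7.3 is thus no example of a sequence unlike the box pair.
F09G2.14: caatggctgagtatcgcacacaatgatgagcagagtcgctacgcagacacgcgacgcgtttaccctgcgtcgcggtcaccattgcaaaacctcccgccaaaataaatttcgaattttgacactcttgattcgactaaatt
C51F7.3: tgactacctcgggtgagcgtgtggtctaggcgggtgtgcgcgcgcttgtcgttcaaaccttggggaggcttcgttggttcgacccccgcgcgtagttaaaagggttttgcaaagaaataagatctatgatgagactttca

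The measurements were lists of peaks, each with a summit and a signal value given by the authors. Thresholding by irreproducible discovery rate (IDR) had left 660 peaks, of which 642 were nuclear, out of 14658 in the pooled list, which also holds background calls. Each of the 642 recurs in the pooled list with position, summit and signal unaltered. The replicate lists held 18200 and 17770 peaks. Read depth is unknown, and signal scales of different lists cannot be compared, so ranks within a list are given beside signals. Below, a "thresholded" summit is one from the IDR list, and "pooled only" marks a snoRNA gene with a summit in the pooled list alone.

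ZFP-2 summits were found at a minority of snoRNA genes, and at a far larger share of them than of the genome. A thresholded summit lay within 250 bp of 48 of the 346 snoRNA genes, or 13.9% (exact Clopper-Pearson 95% interval 10.4% to 18.0%), against 0.391% of 159160 genome tiles of 630 bp, the median width of a snoRNA window. Among nuclear genes of other biotypes the same window held a summit at 1.8%. In the strongest peaks of each replicate, taken in the same number as the thresholded list, 43 snoRNA genes were called in replicate 1 and 53 in replicate 2, against 0.392% and 0.4% of tiles. Intervals here cover counting error only and treat genes as independent, which neighbouring genes are not. Genes are not replicates of a condition, so no p-value is given.

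The wider pooled list called 147 snoRNA genes, or 42.5% (37.2% to 47.9%), against 8.67% of tiles. The whole lists called 144 in replicate 1 and 149 in replicate 2, against 10.6% and 10.4% of tiles. The remaining 199 snoRNA genes had no pooled summit in their window.

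Both intronic and free-standing snoRNA genes were called. Thresholded summits lay at 20 of 169 intronic genes, or 11.8% (7.38% to 17.7%), against 0.225% of tiles whose middle base is intronic. Of the 124 genes outside protein-coding genes, 22 were called, or 17.7% (11.5% to 25.6%), against 0.629% of tiles outside such genes. Another 6 of 53 genes overlapping an exon were called (interval 4.27% to 23.0%), against 0.275% of exonic tiles. The intervals of the 3 groups overlap, so no order among them is read.

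**Figure D1:**
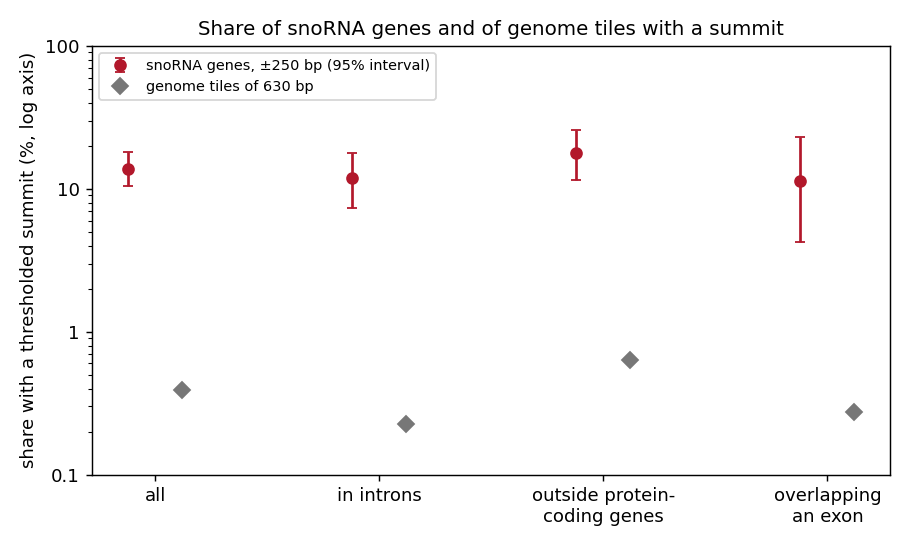
Share of snoRNA genes with a thresholded summit within 250 bp (circles, with exact 95% intervals) and of 630-bp genome tiles with one (diamonds), in percent on a log axis, for all genes and by position relative to protein-coding genes. The circle stands above its diamond in each of the 4 groups, at 13.9% against 0.391% for all snoRNA genes.

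Set beside other small RNA genes, snoRNA genes at 13.9% lay between tRNA genes, with 118 of 612 or 19.3% (16.2% to 22.6%), and snRNA genes, with 9 of 129 or 6.98% (3.24% to 12.8%). The intervals of snoRNA genes overlap those of both classes. MicroRNA genes were at 1.53%, with 4 of 261 called, and protein-coding genes at 2.27%, with 453 of 19973. None of the thresholded summits at snoRNA genes lay within 250 bp of an annotated tRNA or snRNA gene.

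The 48 called genes shared 48 distinct summits. C51F7.3 and C51F7.4, neighbours on chromosome V in the gene of the FERM-domain protein frm-7, had 1 summit in common. T26A8.6, on chromosome IV, had 2 of its own, with signals of 108 and 90.5, at 123 bp past and 76 bp before its first base. Signals of the 48 summits ran from 84.0 to 3535 with a median of 133, against 116 for all nuclear thresholded peaks. Only 4 were among the 100 strongest nuclear peaks, and 2 of these among the first 50.

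Summits concentrated just upstream of the RNA itself. Relative to the first base of the snoRNA gene, in the direction of its transcription, the thresholded summits had a median position of -35 bp, with quartiles of -57.5 and -16.8 and a range of -248 to 150. Of the 48 genes, 35 (72.9%) had their summit 1 to 100 bp upstream, a stretch that takes up 15.9% of the median window. At the 99 pooled-only genes the median was 25 bp, with quartiles of -75 and 181, and 32 of them (32.3%) had the summit 1 to 100 bp upstream. Distances were a median of -31 bp in replicate 1 (46 genes) and -42 bp in replicate 2 (48 genes).

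**Figure D2:**
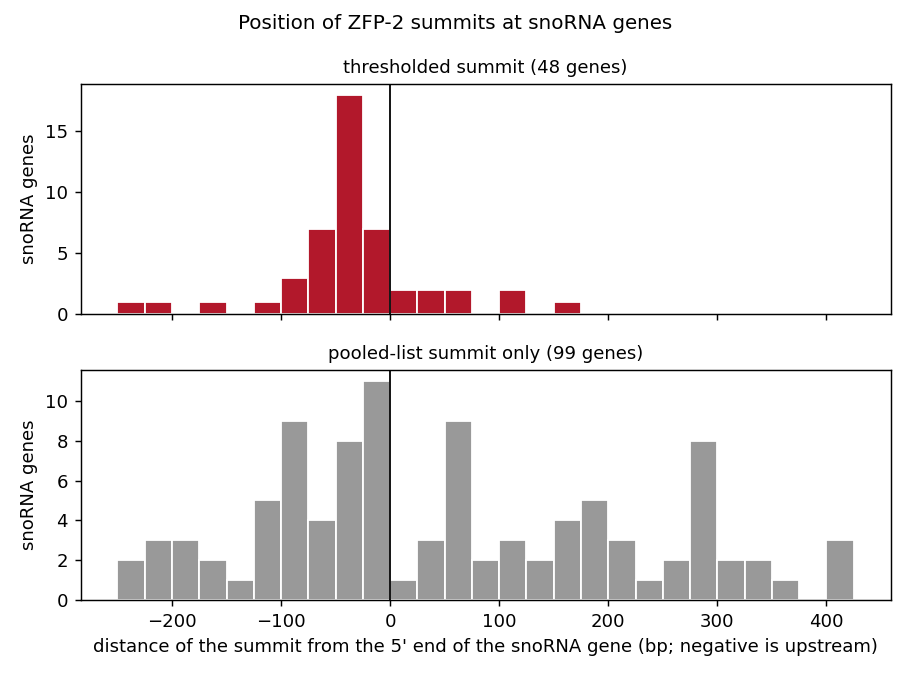
Distance of the strongest summit from the first base of the snoRNA gene, in bp along its transcription, in bins of 25 bp, for 48 genes with a thresholded summit (upper panel) and 99 with a pooled-list summit only (lower panel). The thresholded summits pile up at a median of -35 bp, and the pooled-only summits spread over the window with a median of 25 bp.

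The position was similar inside and outside host genes. Intronic genes had a median of -33.5 bp (n = 20), and genes outside protein-coding genes -40.5 bp (n = 22). Exon-overlapping genes had -29 bp (n = 6). A summit closer to the start of the snoRNA gene than to any protein-coding 5′ end was found at 45 of the 48 genes. The exceptions were F54E7.10, F39B2.14 and F07A11.15, whose summits lay 125, 60 and 63 bp from the 5′ ends of ska-3, tmem-107 and din-1. Genes were called by a summit within 250 bp, so the count of 45 is largely set by that rule. No background share is given for it, and which start a summit belongs to was not tested.

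Protein-coding promoter windows, reaching from 1000 bp before to 200 bp past an annotated 5′ end, held 17 of the 48 summits. At those 17 genes the median position was -44 bp, and at the 31 genes in no such window it was -34 bp, with 25 of 31 (80.6%) at 1 to 100 bp upstream. Among intronic genes 16 of 20 summits lay in no promoter window, and their distance to the nearest protein-coding 5′ end had a median of 1068 bp over all 20. Genes outside protein-coding genes had 10 of 22 summits in such a window, and exon-overlapping genes 3 of 6.

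Over all 346 snoRNA genes, 108 had a summit in both whole replicate lists, 36 in replicate 1 only, 41 in replicate 2 only and 161 in neither. In the strongest peaks of each replicate the counts were 40 in both, 3 in replicate 1 only and 13 in replicate 2 only. The 48 called genes come from a list that IDR had already selected for agreement between replicates, so their values below are a description. Of these 48, 46 had a summit in both lists within 250 bp. F54E7.10 and W06H8.17 lacked a replicate 1 summit in their windows. Across the 46 genes, Spearman's rho of the signals was 0.684, and 0.639 over 44 genes without the 2 strongest of them, F09G2.14 and F39B2.14 (a description over sites, which are not independent). Summits of the 2 lists differed by a median of 25 bp and by at most 129 bp.

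**Figure D3:**
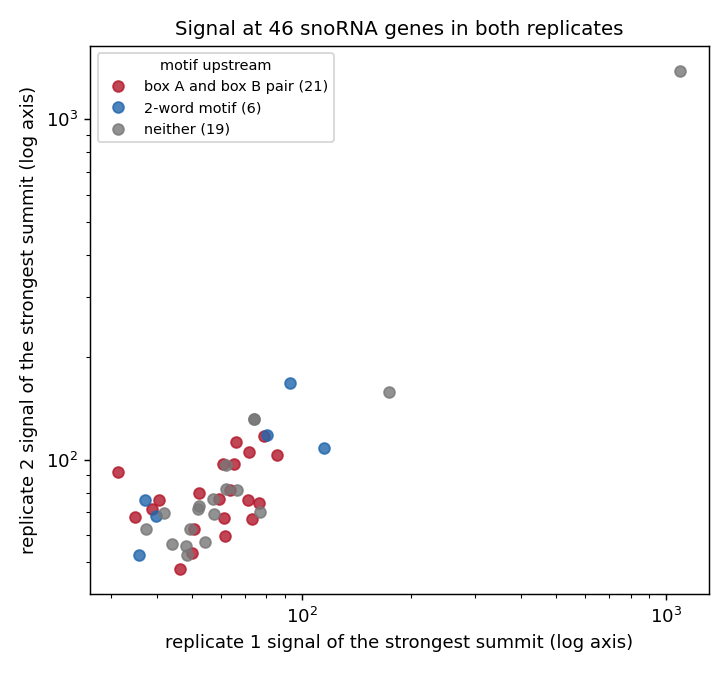
Signal of the strongest summit within 250 bp of each of 46 snoRNA genes in replicate 1 (horizontal, log axis) and replicate 2 (vertical, log axis), coloured by the motif found upstream. F09G2.14 stands alone at 1096 and 1385, and the other genes lie between 31.4 and 174 in replicate 1.

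The 3 strongest summits at snoRNA genes lay in promoter windows of protein-coding genes. F54E7.10, 132 bases long in an intron of rps-12 (a small-subunit ribosomal protein gene) on chromosome III, had a signal of 3535 and ranked 5 among nuclear peaks. Its summit lay 248 bp upstream, at the very edge of the window, in the promoter windows of rps-12 and ska-3, and in replicate 2 it had a signal of 1917 at -250 bp. F09G2.14, on chromosome V, had 2476 in the pooled data and ranked 8, with 1096 in replicate 1 and 1385 in replicate 2. Its summit, 82 bp upstream, lay in the promoter windows of F09G2.2 and attf-2. F39B2.14, on chromosome I and overlapping an exon of tmem-107 (a ciliary transition zone protein), had 333, with 174 in replicate 1 and 158 in replicate 2. The F39B2.14 summit, 121 bp upstream, lay in the promoter windows of rps-26 and tmem-107. Whether these summits belong to the snoRNA gene or to the neighbouring promoter was not tested.

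Ribosomal protein genes are frequent hosts of snoRNAs, and 19 of the intronic genes lay in one. Of these 19 only F54E7.10 had a thresholded summit, or 5.26% (0.133% to 26.0%), against 11.8% of all intronic snoRNA genes. In the pooled list 5 of the 19 were called, or 26.3% (9.15% to 51.2%), against 71 of all 169 intronic genes. The intervals overlap those of all intronic genes in both lists.

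Strong summits far from promoters were found in introns of hosts with unrelated functions. ZK994.7, 67 bases long in an intron of pxn-1 (a peroxidasin gene) on chromosome V, had the fourth strongest snoRNA summit, with a signal of 257 and rank 81. Replicate 1 had 93.2 at -36 bp and replicate 2 had 167 at -25 bp. The pooled summit at V:8500546 lay 33 bp upstream of the snoRNA gene and 5657 bp from the nearest protein-coding 5′ end. Its upstream sequence, printed above, held the 2-word motif.

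C51F7.3, in an intron of frm-7, had a signal of 205, with 73.8 in replicate 1 and 131 in replicate 2. The shared summit was 57 bp upstream of this gene and 52 bp past the first base of C51F7.4, which overlaps an exon of frm-7. ZK484.9, on chromosome I in an intron of the half-transporter gene haf-9 but on the opposite strand, had 192, with 85.5 in replicate 1 and 103 in replicate 2. Its summit lay 36 bp upstream of the snoRNA gene.

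Further intronic genes with strong summits completed the 6 highest. Y43F8C.22, in an intron of Y43F8C.7, had 179, with 66.04 in replicate 1 and 113 in replicate 2, and its summit lay 35 bp upstream. T03F7.8, in an intron of the cuticlin-like gene cutl-18 on the opposite strand, had 173, with 65.4 in replicate 1 and 96.9 in replicate 2. The T03F7.8 summit at -50 bp lay 2693 bp from the cutl-18 5′ end. ZK484.9, Y43F8C.22 and T03F7.8 all held the box pair, whose sequence is printed above for Y43F8C.22 and T03F7.8.

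Genes outside protein-coding genes included Y53F4B.47, 80 bases long on chromosome II, with a signal of 219, 115 in replicate 1 and 108 in replicate 2. Its summit at -72 bp lay in the promoter window of cmtr-1, an mRNA cap methyltransferase gene, and the replicate summits at -74 and -72 bp were nearly identical. F59C6.15 on chromosome I had 195, with 80.2 in replicate 1 and 118 in replicate 2, at -44 bp, in the promoter window of F59C6.18. W03C9.9 on chromosome II had 194, with 79.1 in replicate 1 and 118 in replicate 2, at -59 bp. It stood 1289 bp from any protein-coding 5′ end.

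F32E10.10 on chromosome IV had 170, with 71.8 in replicate 1 and 105 in replicate 2, and its summit lay 37 bp upstream. T06C12.16 on chromosome V had 161, with 60.8 in replicate 1 and 97.1 in replicate 2, at -31 bp. These 2 genes are in no promoter window. F30H5.4 on chromosome III, with 147, 63.5 in replicate 1 and 81.3 in replicate 2, stood 9443 bp from the nearest protein-coding 5′ end, and its 2 replicate summits lay at -31 and -29 bp.

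Among exon-overlapping genes the 6 called were F39B2.14, C51F7.4, T02E1.9, W01C9.6, T27A3.9 and F07A11.15. T02E1.9, opposite an exon of the sperm activation gene spe-12, had 151, with 76.8 in replicate 1 and 69.96 in replicate 2, at -42 bp. W01C9.6, opposite an exon of the globin gene glb-27, had 141 at -70 bp. T27A3.9 had 136 at -16 bp, and F07A11.15, opposite an exon of the corepressor gene din-1, had 107 at 116 bp past its first base.

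Not every summit lay just upstream of the gene. B0334.12, in an intron of the potassium channel gene twk-5 on the opposite strand, had 159, with 62.1 in replicate 1 and 96.6 in replicate 2. This summit lay 150 bp past the first base and thus beyond the 70 bases of the gene. F11A10.9, in an intron of rbm-34, had 131 at 29 bp, and D1046.6, in an intron of the cleavage factor gene cfim-2, had 142 at 20 bp. The D1046.6 summit lay in the promoter window of cfim-2, 195 bp from its 5′ end. M7.15 had 139 at -204 bp, upstream but far from its first base. That summit lay in the promoter windows of klc-1 and the ubiquitin-conjugating enzyme gene let-70.

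Host strand split the intronic genes, apart from 2 with several hosts. On the strand opposite to the host, 6 of 27 snoRNA genes were called, or 22.2% (8.62% to 42.3%), against 14 of 140 (5.58% to 16.2%) on the same strand. The intervals overlap. The pooled list called 16 of 27 opposite-strand genes (59.3%) and 55 of 140 same-strand genes (39.3%).

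Called snoRNA genes were short. Their median length was 83 bases, against 129 for pooled-only genes and 134 for genes without a summit. Below 100 bases, a length chosen after the values were seen, 28 of 93 genes were called, or 30.1% (21.0% to 40.5%), against 20 of 253 longer genes, or 7.91% (4.90% to 11.9%). The pooled list called 57 of 93 short genes (61.3%) and 90 of 253 longer ones (35.6%).

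Chromosome X carried the fewest thresholded calls, though its interval in that list overlaps those of the autosomes. C53B7.8, with a signal of 105, was the single called gene of 33 on X, or 3.03% (0.0767% to 15.8%). On the autosomes the counts were 10 of 74 on I, 11 of 71 on II, 4 of 54 on III, 9 of 59 on IV and 13 of 55 on V, or 7.41% to 23.6%. In the pooled list X had 5 of 33 genes (15.2%, 5.11% to 31.899%), and the autosomes ran from 38.9% on III to 50.9% on V. This pooled interval lies below those of I (from 38.1%) and V (from 37.1%), and barely below that of II (from 31.915%). It overlaps those of III (from 25.9%) and IV (from 29.6%). In the whole replicate 1 list X had 8 of 33 genes (24.2%, 11.1% to 42.3%), and that interval overlaps those of all autosomes. In the whole replicate 2 list X had 4 of 33 (12.1%, upper limit 28.2%), and its interval overlaps that of III alone (from 27.6%). Shares of tiles or of other genes were not taken by chromosome, so whether X lacks peaks in general was not tested.

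The tRNA-like pattern was then searched in all snoRNA genes, from 250 bp before to 50 bp after the first base and on both strands. Its letters were chosen after the called sequences had been read, so the shares below describe these genes and are no test. The box A and box B pair stood on the strand of the gene at 21 of 48 called genes (43.8%), 10 of 99 pooled-only genes (10.1%) and 5 of 199 genes without a summit (2.51%). A difference of this size was seen at the chosen rule alone. With 1 mismatch fewer the pair stood at 1 of 48 called genes (2.08%), 3 of 99 pooled-only genes (3.03%) and 1 of 199 without a summit (0.503%), so that called genes were then below pooled-only genes. With 1 mismatch more it stood at 37 of 48 (77.1%), 65 of 99 (65.7%) and 108 of 199 (54.3%) of these groups. On the opposite strand, at the chosen rule, it stood at 1 of 48 called genes. Across all 334240 tiles of 300 bp, the length of the searched window, 0.987% held the pair on a given strand and 1.93% on either. Protein-coding genes held it in the same window at 0.741%, and snRNA genes at 0 of 129 on their own strand and 7 of 129 (5.43%) on the opposite one. Around the starts of tRNA genes 8.99% of 612 windows held it on either strand, and 2.94% on the strand of the gene. These windows end 50 bp after the first base, so many pairs inside tRNA genes are cut off. The search within the tRNA gene, given below, found the pair in 75.8%, so the window shares understate how often tRNA genes hold it.

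Read the other way, 21 of the 36 snoRNA genes with the pair had a thresholded summit, or 58.3% (40.8% to 74.5%), and 31 of 36 had a pooled one. Because the letters were taken from called sequences, the intervals in this paragraph cover counting error only and test no link between pair and summit. All its values are for the chosen mismatch rule. The 274 genes with neither pattern had 21 thresholded summits, or 7.66% (4.81% to 11.5%), and 92 pooled ones, or 33.6%. Among genes with the pair, the share called was close in both positions: 13 of 22 intronic genes (59.1%) and 8 of 13 genes outside protein-coding genes (61.5%) were called. Without either pattern 5 of 131 intronic genes (3.82%) and 10 of 91 outside genes (10.99%) were called. Of genes with the pair, 14 of 19 short and 7 of 17 longer ones had a thresholded summit, and of genes with neither pattern 11 of 59 short and 10 of 215 longer ones.

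**Figure D4:**
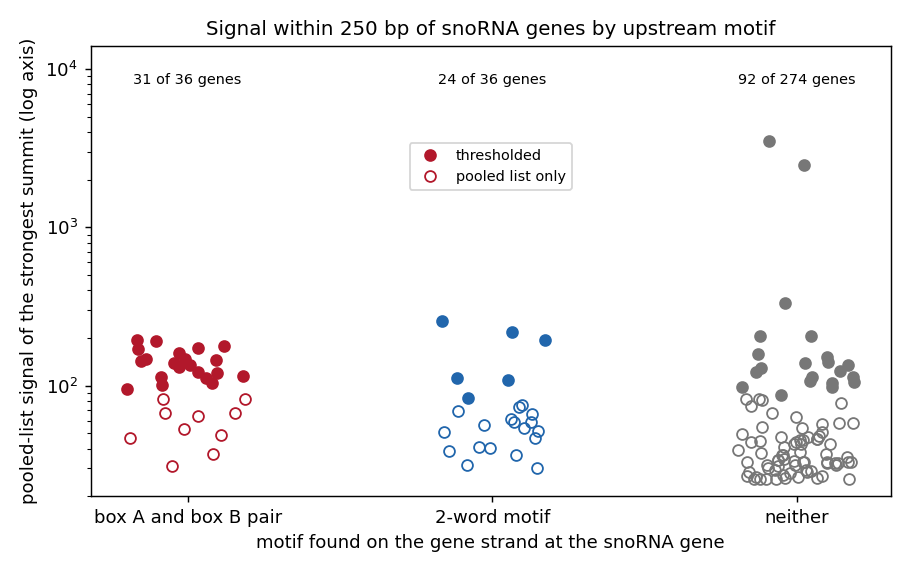
Pooled-list signal (log axis) of the strongest summit within 250 bp of each snoRNA gene, by the motif found on its strand, with filled points for thresholded and open points for pooled-only summits. Numbers at the top give genes with a pooled summit, 31 of 36 with the box pair, 24 of 36 with the 2-word motif and 92 of 274 with neither.

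The pair was arranged within narrow limits. At the 21 called genes box A began at a median of -57 bp (range -72 to -45), and box B at -14 bp (range -27 to -5), so that box A lay wholly upstream of the annotated RNA in each of them. The 2 first bases lay 33 to 52 bp apart, and 44 or 45 bp apart at 16 of 21 genes. The summit lay a median of 27 bp after the start of box A, and at 16 of 21 genes between the start of box A and the end of box B. In 464 of 612 annotated tRNA genes (75.8%), the same search within the gene found the pair, at a median of 7 bases from its first base. None of the 36 pairs at snoRNA genes overlapped an annotated tRNA gene, 4 overlapped an annotated pseudogene and 7 another annotated non-coding gene.

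**Figure D5:**
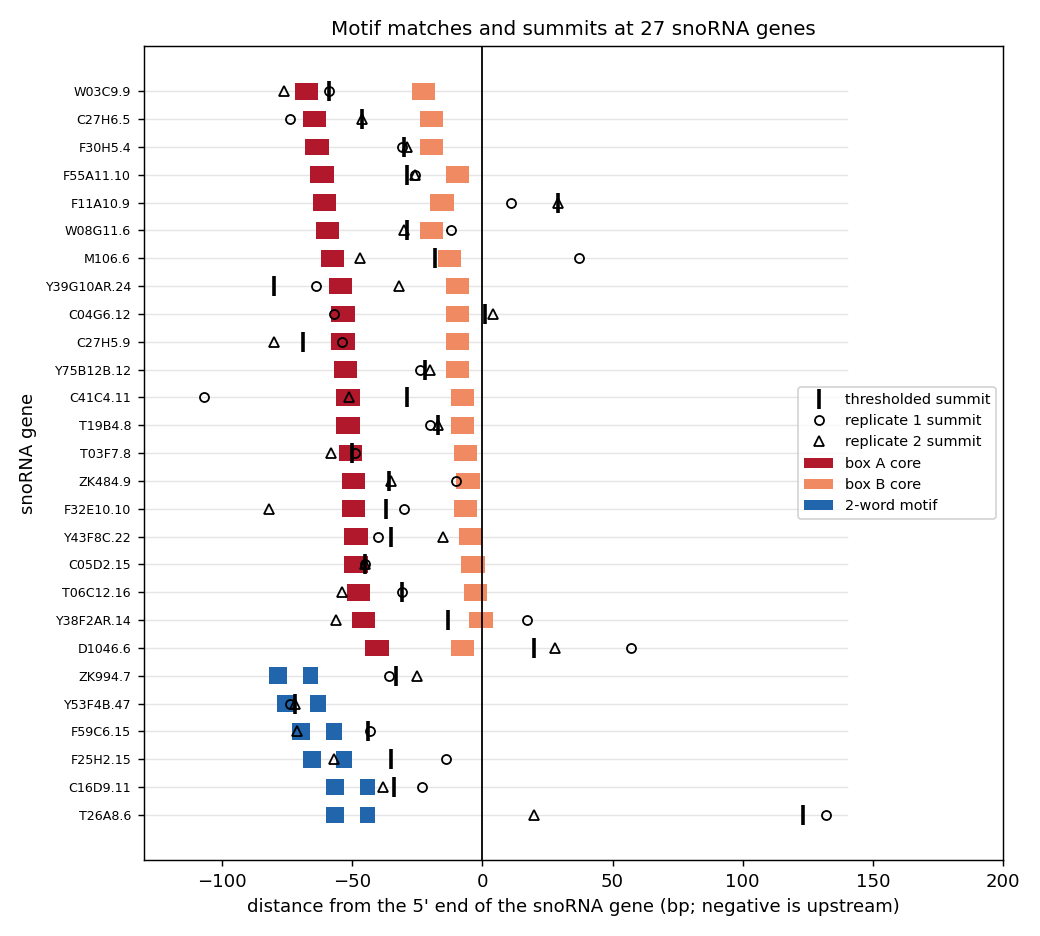
Motif matches (bars) and summits (marks) at the 27 called snoRNA genes that hold the box pair (upper 21 rows) or the 2-word motif (lower 6 rows), in bp from the first base of the gene. Vertical marks are thresholded summits, circles replicate 1 and triangles replicate 2, and 16 of the 21 thresholded summits fall from box A to the end of box B.

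Signals at the 21 called genes with the pair ran from 95.3 to 194 with a median of 138. Thresholding limits the lower end, as the weakest nuclear thresholded peak had 83.8. At the 10 pooled-only genes with the pair, pooled signals ran from 31.2 to 82.7. M106.6, in an intron of mix-1 (a condensin subunit gene), had 104, with 39.0 in replicate 1 and 71.4 in replicate 2. Its summit was at -18 bp, and the replicate summits lay 37 bp past and 47 bp before the first base. C04G6.12, opposite to the MAP kinase gene mpk-2, had 121, with 31.4 and rank 1041 in replicate 1 and 92.2 and rank 185 in replicate 2. The lowest of the 21 was Y39G10AR.24 on chromosome I, with 95.3. Only 4 of these 21 summits lay in a promoter window, against 11 of the 21 at called genes with neither pattern. Among these 4 were Y75B12B.12, with 147 at -22 bp, and F55A11.10, with 146 at -29 bp. Their summits lay 181 and 95 bp from the 5′ ends of Y75B12B.11 and F55A11.6.

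The pair was also present where no thresholded summit was seen. F12F6.11, with 82.7 in the pooled list, 32.5 in replicate 1 and 54.4 in replicate 2, and T10B9.11, with 82.2, 37.8 in replicate 1 and 45.1 in replicate 2, were the strongest pooled-only snoRNA genes, ranked 659 and 670. They lie just below the thresholded list, whose weakest snoRNA summit, at F25H2.15, had 84.0. R12E2.17, F25H5.9, K10D2.10, T13E5.1 and Y59E1B.14 had the pair and no pooled summit. At Y59E1B.14, on the X chromosome, the pair lay over an annotated pseudogene.

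The 2-word motif stood on the strand of the gene at 6 of 48 called genes (12.5%), 18 of 99 pooled-only genes (18.2%) and 12 of 199 genes without a summit (6.03%), against 0.473% of tiles on a given strand and 0.869% on either. Its first base lay 82 to 60 bp upstream at the 6 called genes, with a median of -71. At snRNA genes the same search found it on the strand of the gene at 57 of 129 (44.2%), with a median of -60 bp. The thresholded summit lay a median of 31.5 bp past its first base. No snoRNA gene held both patterns on its own strand, and 2 genes with the box pair, Y43F8C.22 and T06C12.16, held the 2-word motif on the opposite strand.

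Genes with the 2-word motif were mostly below the threshold. Of 36, 6 had a thresholded summit, or 16.7% (6.37% to 32.8%), and 24 a pooled one, or 66.7% (49.0% to 81.4%). The 6 called were ZK994.7 (257), Y53F4B.47 (219), F59C6.15 (195), C16D9.11 (111), T26A8.6 (108) and F25H2.15 (84.0), where the number is the signal. C16D9.11, in an intron of the receptor tyrosine kinase gene rol-3, had 37.1 in replicate 1 and 76.0 in replicate 2, at -34 bp. Among the pooled-only genes were smy-2, with 75.5, and smy-3, with 59.1, which encode SmY RNAs, small RNAs of nematodes associated with the trans-splicing machinery.

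The remaining 21 called genes matched neither pattern under these letter rules, and a missing match says only that these letters are not in the window. They included F54E7.10, F09G2.14 and F39B2.14, and their median signal was 128. The 6-base word GTTCGA, part of the box B core, was found on either strand at 18 of 48 called genes (37.5%), 15 of 99 pooled-only genes (15.2%) and 21 of 199 without a summit (10.6%), against 10.8% of tiles. The word ACGCGC stood at 22.9% of called genes, 7.07% of pooled-only genes and 5.03% without a summit, against 3.57% of tiles. At snRNA genes ACGCGC stood at 27.1%. CGAGAG stood at 25% of called genes, 15.2% of pooled-only genes and 10.6% without a summit, against 7.48% of tiles. In the same order, GACGCA had 18.75%, 10.1%, 12.1% and 5.96%, and ACGCAG 14.6%, 11.1%, 8.54% and 5.63%. TGATGA had 22.9%, 26.3%, 27.6% and 22.0%. TATAAA, the core of a TATA box, stood at 29.2% of called genes, 24.2% of pooled-only genes and 24.1% without a summit, against 29.8% of tiles.

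Just under the threshold, the 5 strongest pooled-only genes were F12F6.11 (82.7), T10B9.11 (82.2), F37F2.4 (82.0), C02F5.15 (81.9) and C10C6.8 (81.4). C10C6.8 lies in an intron of catp-8, a P-type ATPase gene, with its summit at -78 bp. F37F2.4 and C02F5.15 had theirs at -176 and -142 bp, and none of these 3 held either pattern. Altogether 17 of the 99 pooled-only genes ranked within the first 1284 nuclear pooled peaks, which is 2 times the nuclear thresholded number.

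Few of the called genes had a near-identical copy. Over that stretch F25H2.15 was 91.9% identical to the pooled-only gene Y67A10A.14, and F59C6.15 was 88.6% identical to F25H2.15. These were the 2 of 48 called genes with a closest member at 80% identity or more, and how reads that fit both copies were placed is not given in the sources used here.

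Genes of the snoRNA protein machinery were examined from a list of 20, all of which matched the annotation. Of 9 genes for proteins of the snoRNA particle or the nucleolus, 5 had a thresholded summit in their promoter window, against 2.79% of all protein-coding genes, and 8 had a pooled one, against 25.4%. These were all 4 core box C/D proteins: the methyltransferase fibrillarin fib-1 with 154, nol-56 with 94.2, nol-58 with 111 and snu-13 with 153. The H/ACA particle gene nola-3 had 87.0. The pseudouridine synthase gene dkc-1 (dyskerin) had a pooled signal of 80.5, Y48A6B.3 (NHP2) had 53.2 and the nucleolar gene dao-5 had 34.0, while garr-1 (GAR1) had no summit.

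The other 11 genes of the list encode machinery that transcribes small RNA genes. None of them, including tbp-1 (TATA-binding protein), brf-1 (a TFIIIB subunit), the polymerase III subunits rpc-1 and rpc-2 and the SNAPc subunits, had a thresholded summit. Pooled summits stood at 3 of 11, snpc-3.4 with 49.7, snpc-4 with 34.3 and snpc-3.2 with 28.8. This share of 3 in 11 is close to the 25.4% of all protein-coding genes.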

How the data were processed

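The authors deposited peak lists (narrowPeak format, no header) on ce11 for each replicate, for the pooled replicates and after IDR thresholding, per the description file deposited with each sample. Peak signal values are as the authors deposited them; their normalization, the aligner, the caller and the IDR cutoff were not given in the sources used here. Lists on ce10 were not used, and no coordinate was converted. From the deposited lists, summits were assigned to genes of Ensembl release 115 (WBcel235, the sequence of ce11) with Python 3.11.15, numpy 2.4.6, pandas 2.3.3 and scipy 1.17.1, and sequences came from the RefSeq copy of WBcel235. Mitochondrial peaks were left out. When a gene had several summits in its window, the strongest was used for signal and position. Tiles of 630 bp, and of 300 bp for motifs, covered each nuclear chromosome end to end and were classed by their middle base. The counting steps were tested on simulated data. Alternatives were other windows, the stronger 330 thresholded peaks, each replicate alone, whole-peak overlap, and leaving out summits near promoters, tRNA or snRNA genes.

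The snoRNA set, the gene list and the rule for named genes were chosen with earlier results of these data known. That rule named the 20 strongest snoRNA genes, the 6 strongest of each class, the 5 strongest pooled-only genes, genes with several summits or without a summit in 1 replicate, their hosts and the bound genes of the list. The motif letters, the 100-base length split and genes named for their motif were chosen after values were seen.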

Additional observations from a re-analysis of the deposited data

How the results depend on the processing

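Of 46 alternative settings, 37 left the value within 1.5 times the reported count or within the spread between replicates, and 9 moved it further. Counts and signals have no direction to turn. Only the median summit position could have changed sign, and it stayed upstream in each alternative. Counting summits inside the gene body alone (a window of 0 bp) left 8 of the 48 called snoRNA genes, 3 of the 20 intronic and 3 of the 22 outside protein-coding genes, and 31 of the 147 with a pooled summit; most summits lie upstream of the gene, so this window excludes them by construction. The stronger 330 peaks of the thresholded list called 31 snoRNA genes in all and 11 outside protein-coding genes. Leaving out summits in promoter windows gave 31 in all and 12 outside. With 1 replicate left out, the calls ran from 43 to 53 in all, from 17 to 23 for intronic genes, from 20 to 23 outside and from 144 to 149 in the pooled list. The median summit position ran from -45 to -31 bp, against -35 bp as reported. The mismatch allowance of the box pair, varied after seeing the data, changed its contrast: with 1 mismatch fewer it stood at 1 of 48 called and 3 of 99 pooled-only genes, reversing their order. With 1 more it stood at 37 of 48 called, 65 of 99 pooled-only and 108 of 199 genes without a summit, and at 33 of 48 called genes on the opposite strand. The 2-word motif stood at 6 of 48 called genes with 1 mismatch fewer and at 7 with 1 more. No paired analysis was possible because there is a single group.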
